A study of Mus musculus with 18 samples.

Results

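Which miRNAs were ligated to the transcripts of 10 desmosome genes, and where, was read from chimeric sequences of cultured mouse keratinocytes. The genes were Perp, the desmosomal cadherins Dsg2, Dsg3, Dsc2 and Dsc3, the plaque proteins Dsp and Jup, and the plakophilins Pkp1, Pkp2 and Pkp3. A read was assigned to a gene where the midpoint of its target part lay in the RefSeq span of that gene. By this rule 4470 of 1153545 chimeric reads belonged to the 10 genes, of 14137 protein-coding genes with at least 1 read.

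The assay was CLEAR-CLIP, in which Argonaute 2 is precipitated after UV crosslinking and a miRNA is ligated to the RNA it sits on, so that 1 read names both. The 18 libraries fell into 2 sets. Set 1 held 3 libraries of miR-200 DKO (double knockout) cells and 6 of control cells carrying K14-Cre only, a recombinase driven by the keratin 14 promoter. The labels do not name the deleted alleles or the promoter of the inducible form. Set 2 held 3 libraries of miR-200 DKO cells, 3 of miR-200 inducible cells after 24 hours in 3 ug/ml doxycycline (induced) and 3 of the same inducible cells without doxycycline (uninduced), which served as its control. All cells were grown in a low-calcium medium, in which keratinocytes stay basal-like and form few desmosomes since cadherin adhesion needs calcium, and each library came from 1 dish. Whether dishes came from separate animals or lines is not given in the labels. The deposited files join the libraries of each group, so every group was 1 pool without replicates. No test between groups was possible, and all intervals below express only the error of counting reads. The pools held 48662 (set 1 DKO), 161692 (set 1 control), 210003 (set 2 DKO), 419117 (induced) and 314071 (uninduced) reads.

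Desmosomes are the spot-like junctions that couple the keratin filaments of neighbouring epithelial cells. Desmogleins and desmocollins span the membrane and bind each other between cells, plakoglobin (Jup) and plakophilins bind their tails, and desmoplakin (Dsp) links this plaque to keratin. Perp is a tetraspan membrane protein of epidermal desmosomes, first known as a p53 target. A miRNA guides Argonaute to a transcript mainly through its seed, bases 2 to 8, and usually lowers the level or translation of that transcript. The miR-200 family, known for maintaining epithelial character, has 2 seed groups that differ by a single base, miR-200b, miR-200c and miR-429 against miR-200a and miR-141.

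The mature sequences below belong to the miRNAs that led the reads of the desmosome genes or were altered by the study. They are shown 5′ to 3′ from RefSeq (GRCm38.p6), with the seed in capitals, and miRNAs that share a seed stand together.
miR-26a-5p: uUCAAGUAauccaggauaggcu
miR-26b-5p: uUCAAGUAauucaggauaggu
miR-200a-3p: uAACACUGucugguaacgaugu
miR-141-3p: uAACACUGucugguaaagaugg
miR-141-5p: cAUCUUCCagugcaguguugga
miR-200b-3p: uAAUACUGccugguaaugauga
miR-200c-3p: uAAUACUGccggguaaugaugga
miR-429-3p: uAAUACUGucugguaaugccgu
miR-29a-3p: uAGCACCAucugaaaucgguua
miR-29b-3p: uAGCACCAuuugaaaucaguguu
miR-221-3p: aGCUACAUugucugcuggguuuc
miR-222-3p: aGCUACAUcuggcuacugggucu
miR-23a-3p: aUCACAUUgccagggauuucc
miR-27a-3p: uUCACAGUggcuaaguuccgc
miR-205-5p: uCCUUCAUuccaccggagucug
miR-31-5p: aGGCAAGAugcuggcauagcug
miR-21a-5p: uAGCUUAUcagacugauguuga
miR-125b-5p: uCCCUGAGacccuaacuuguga
Of 241 miRNA names found on the 10 genes, 184 had an entry in that table, and these carried 4015 of the 4470 reads.

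Among the 10 genes Perp received the most reads over the 5 pools, 1000, followed by Dsc3 with 718, Dsp with 712, Dsg3 with 681, Pkp1 with 529, Dsc2 with 354 and Jup with 333. Dsg2 had 94 reads, Pkp2 28 and Pkp3 21. Levels below are in RPM, chimeric reads scaled to a pool of 1000000 reads. They depend on the amount of a transcript, on the miRNAs present and on ligation, which these reads do not separate, and in such bulk samples fewer cells and less RNA per cell cannot be told apart. Perp stood at 534 RPM in set 1 DKO and 538 in set 1 control, and at 857 in set 2 DKO, 957 in induced and 974 in uninduced cells. Per kilobase of gene span Perp lay at 44.5 to 81.2 RPM, and no other member exceeded 28.0 (Dsc2 in set 2 DKO). Dsp was the member with the most reads in set 1, with 1151 RPM in DKO and 835 in control, while Perp led in set 2. Dsp stood at 833 RPM in set 2 DKO and 477 in induced cells, against 465 in uninduced cells. Dsg3 had 452 RPM in set 1 DKO and 241 in set 1 control, and 462 in set 2 DKO and 756 in induced against 656 in uninduced cells. Dsc3 ran close to Dsg3, with 432 RPM in set 1 DKO and 284 in set 1 control, and 486 in set 2 DKO and 771 in induced against 720 in uninduced cells. Both were thus lowest in set 1 control and highest in induced cells. Pkp1 had 678 RPM in set 1 DKO against 365 in control, and 451 to 476 in the 3 pools of set 2. Jup kept to 262 to 338 RPM in all 5 pools, with overlapping intervals, and Dsg2 to 18.6 to 122 RPM. Pkp2 and Pkp3 had at most 9 reads in any pool, near the level of 3 reads (7.16 to 61.6 RPM, depending on the pool).

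**Figure D1:**
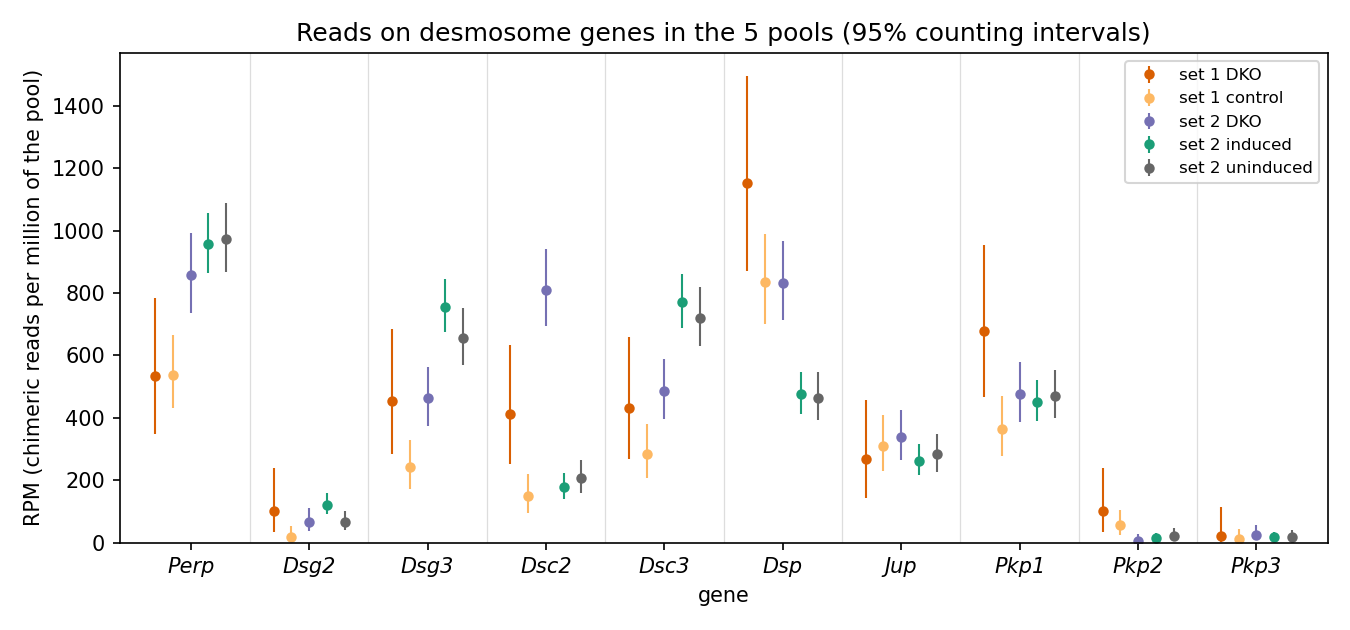
Chimeric reads in RPM, scaled to a pool of 1000000 reads (vertical axis), for each desmosome gene (horizontal axis). Points are the 5 pools and bars are exact 95% counting intervals. Dsc2 in set 2 DKO, at 810 RPM, stands far above its other pools, while Pkp2 and Pkp3 stay near 0.

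The share of reads near the end of the gene differed between members, and it was over 50% in 4 of 10. Only 9 of 4470 reads lay on the strand opposite to the majority of their gene (5 of them in Pkp2), and the majority strand was taken as the direction of the gene. The last 10% of the span in that direction held 88.9% of Perp reads, 84.7% of Dsc2, 67.0% of Dsg2, 57.9% of Dsg3, 48.9% of Dsp and 44.8% of Dsc3 reads. It held 23.1% of Jup, 12.9% of Pkp1, 9.52% of Pkp3 and 7.14% of Pkp2 reads. Over 6331 genes with at least 20 reads, of which at least 90% lay on 1 strand, the median was 20.9% (quartiles 9.52% and 41.3%). Exon and UTR borders were not used here, so a position is given only by its distance to the span end. Perp lies at chr10:18845071-18857073, Dsp at chr13:38151294-38198577, Jup at chr11:100368856-100397839 and Pkp1 at chr1:135871394-135919207 on mm10. The 4 cadherin genes lie on chromosome 18, with Dsc3 at chr18:19960930-20002410, Dsc2 at chr18:20030633-20059554, Dsg3 at chr18:20510274-20541310 and Dsg2 at chr18:20558074-20604526. The end of the Dsg2 span overlaps the noncoding RNA gene Gm16090, where 65 of its 94 reads lay, so that these reads may belong to either.

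Overlapping target parts of the same strand were joined into sites. The 10 genes had 839 sites, of which 445 held a single read and 30 held at least 20 distinct combinations of position, strand and miRNA. Dsc3 had 10 of these deep sites, Dsg3 8, Dsp 5, Jup 3, and Perp and Dsc2 2 each. Pkp1 had none. Its 529 reads spread over 230 sites, and its deepest site held 18 reads (3.40% of the gene). In contrast, 64.9% of Perp reads (649) lay in 1 site of 602 bases at chr10:18855650-18856251, and 276 more lay in the adjoining site that reaches the span end. Likewise, 183 of the 354 Dsc2 reads (51.7%) lay in 1 site at chr18:20031573-20031965.

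To ask which miRNAs were more frequent on a gene than in the pools as a whole, the reads of each miRNA family were set against an expected number, the family's share of each pool times the reads of the gene in that pool, summed over pools. On the 10 genes together, miR-31-5p led with 343 reads (7.67%, 95% interval 6.91 to 8.49), where 428 were expected. miR-21a-5p followed with 340 reads (325 expected). The miR-26 family had 321 reads (62.0 expected), of which 271 were on Perp, and the miR-29 family had 264 (121 expected). Between genes the makeup differed, with miR-26 leading on Perp, miR-29 on Dsc2, miR-205 on Dsc3 and miR-23 on Jup, while miR-31-5p led on Dsp, Dsg3 and Pkp1.

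**Figure D2:**
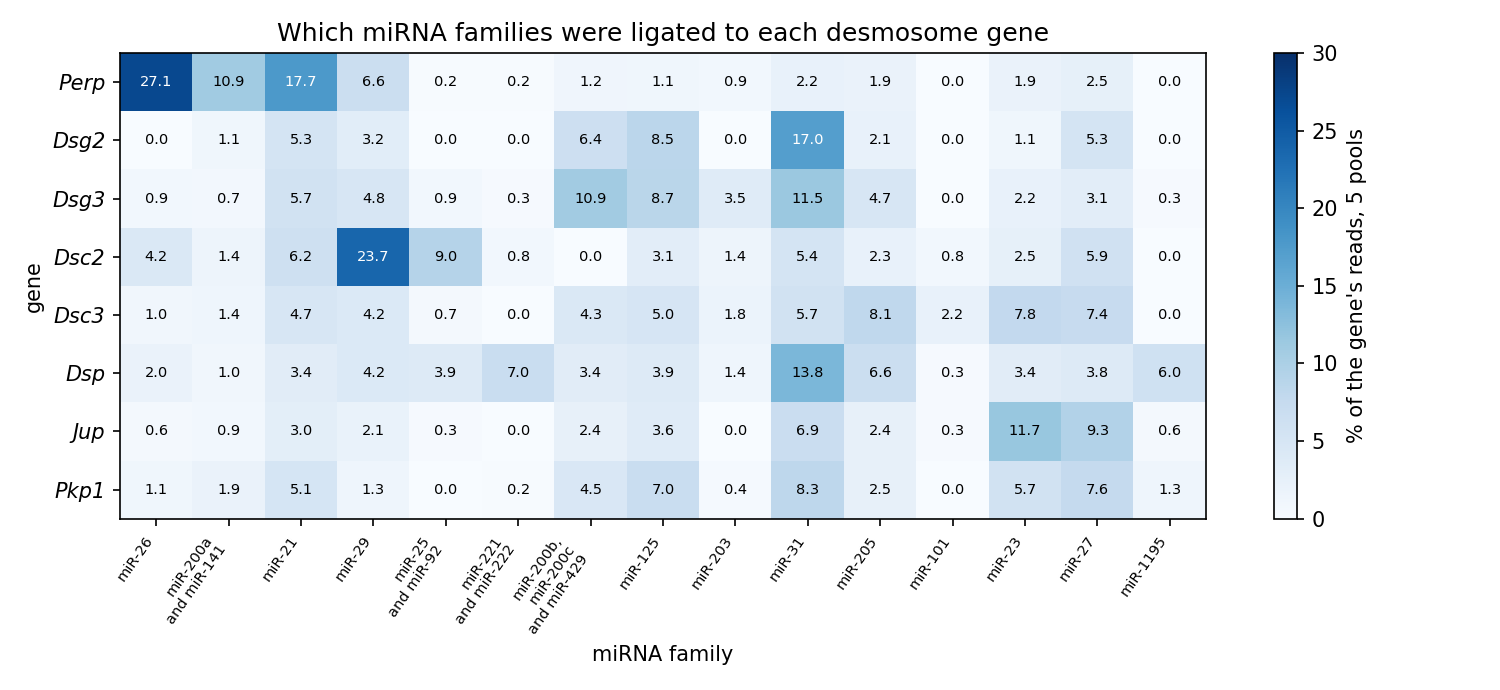
Share of each gene's reads (in percent, 5 pools summed; printed in each cell and shown by colour) that came from each miRNA family (horizontal axis), for the 8 desmosome genes with the most reads (vertical axis). miR-26 holds 27.1% of Perp, miR-29 holds 23.7% of Dsc2, and miR-23 and miR-27 lead on Jup.

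On Perp, miR-26a (169 reads) and miR-26b (102) gave 271 reads where 14.0 were expected, 19.3 times as many (95% interval 17.1 to 21.8). They numbered 3 in set 1 DKO against 18 in set 1 control, and 54 in set 2 DKO and 106 in induced against 90 in uninduced cells. Scaled to the reads of the pool, set 1 DKO stood at 0.554 times its control (0.104 to 1.90). Set 2 DKO stood at 0.897 times uninduced cells (0.628 to 1.27) and induced cells at 0.883 times (0.660 to 1.18). By reads Perp ranked 1 of the 4034 genes with miR-26 reads and held 1.73% of all of them (1.53 to 1.94). This rank is by reads and not per length. The reads piled up at chr10:18856143-18856157, a stretch 916 bases before the span end, which 212 of the 271 covered (101 distinct combinations of position, strand and miRNA). Of the 212 reads, 51 were also found in another pool of their set. A further 52 covered chr10:18856052-18856070. miR-21a-5p gave 177 Perp reads, 2.37 times the 74.7 expected (2.03 to 2.75), and 87 of them covered 2 bases at chr10:18856088-18856089, between both miR-26 positions. The miR-29 family gave 66 Perp reads (28.6 expected), of which 58 covered chr10:18857004-18857016, only 57 bases before the span end. Families that were abundant elsewhere were sparse on Perp: miR-31-5p gave 22 reads where 98.7 were expected, and the miR-125 family gave 11 where 45.2 were expected.

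The miR-200a and miR-141 seed group gave 109 reads on Perp, 5.48 times the 19.9 expected (4.50 to 6.61), and Perp ranked 2 of 4895 genes by reads of this group. The other seed group gave only 12 reads where 39.8 were expected. Of the group's reads, 67 covered chr10:18856012-18856017 (none in either DKO pool, 38 in induced cells, against 26 in uninduced cells and 3 in set 1 control). Another 34 covered chr10:18856395-18856409 (none in either DKO pool, 26 in induced cells, against 4 in uninduced cells and 4 in set 1 control). miR-141-5p, the arm of the miR-141 hairpin that is mostly discarded, also reached Perp, with 16 reads in induced and 9 in uninduced cells. Those 25 were 8.17% (5.36 to 11.8) of its 306 reads in the data, and the gene with the next most, Foxn2, had 5. Of the 25 reads, 18 covered chr10:18855902-18855921, so the 2 arms of the same hairpin lay 103 bases apart on Perp, from centre to centre of these stretches.

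Among the desmogleins, Dsg3, the pemphigus vulgaris antigen, was led by miR-31-5p with 78 reads (69.3 expected) and by the miR-200b, miR-200c and miR-429 group with 74 reads, 2.53 times the 29.3 expected (1.98 to 3.17). Of this group's reads 48 covered chr18:20540672-20540685 (none in either DKO pool, 28 in induced cells, against 17 in uninduced cells and 3 in set 1 control), 625 bases before the span end. The miR-29 family covered chr18:20540698-20540711 with 29 of its 33 Dsg3 reads, and the centres of these stretches lay 26 bases apart. The miR-125 family gave 59 reads, 1.85 times those expected (1.41 to 2.39), with 29 covering chr18:20540068-20540084. There miR-19a and miR-19b covered chr18:20540076-20540079 with 14 of their 25 reads. miR-31-5p lay elsewhere, with 44 of 78 reads covering chr18:20516001-20516025, 25285 bases before the span end. miR-203-3p, which rises in suprabasal cells, gave 24 Dsg3 reads where 7.64 were expected. Dsg2, the desmoglein of simple epithelia, had 16 miR-31-5p reads among 94 (9.61 expected, ratio 1.66, 0.951 to 2.70). On Dsg2 miR-200c-3p and miR-21a-5p had 5 reads each (2.11 and 7.15 expected).

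The desmocollins differed from each other. Dsc2 was led by the miR-29 family, with 84 of 354 reads, 11.2 times the 7.52 expected (8.91 to 13.8), and it ranked 9 of 5277 genes by miR-29 reads. Of these, 77 covered chr18:20031788-20031802, 1155 bases before the span end, and they came from all pools (7 in set 1 DKO and 8 in set 1 control, 17 in set 2 DKO, 24 in induced and 21 in uninduced cells). miR-25, miR-32 and miR-92a gave 32 Dsc2 reads (3.51 expected, ratio 9.11, 6.23 to 12.9). miR-21a-5p gave 22 Dsc2 reads (25.8 expected). Dsc3, the desmocollin of basal epidermis, had 58 miR-205-5p reads, 2.84 times those expected (2.15 to 3.67), of which 27 covered chr18:19974166-19974187. The miR-23 family followed with 56 reads (31.2 expected) and the miR-27 family with 53 (37.8 expected). miR-31-5p was also a leading name on Dsc3, with 41 reads where 72.8 were expected. miR-101b-3p covered chr18:19963301-19963319 with 13 of its 16 Dsc3 reads, where 1.55 reads of miR-101 were expected on the gene. That stretch lay within the deepest Dsc3 site, of 88 reads, at chr18:19963125-19963458.

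**Figure D3:**
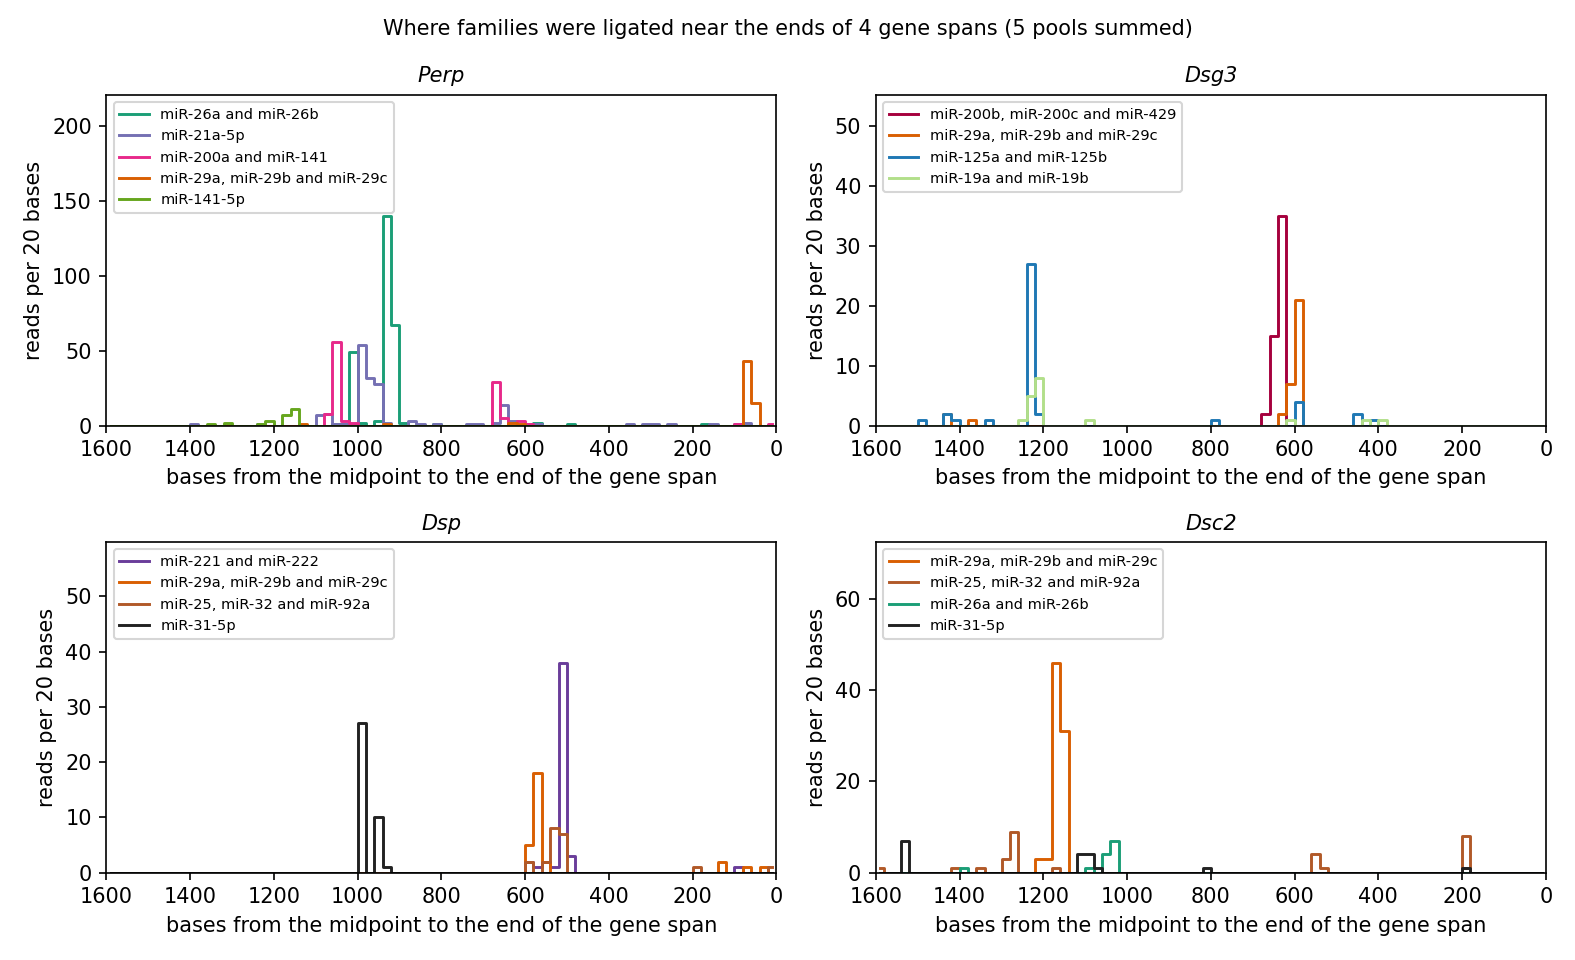
Reads per 20 bases (vertical axis) against the distance in bases from the midpoint of the target part to the end of the gene span (horizontal axis; the end is at the right), for named families on 4 desmosome genes, 5 pools summed. On Perp, miR-26, miR-21a and the miR-200a and miR-141 group crowd around 1000 bases before the end while miR-29 peaks close to it, and on Dsg3 the peak of the miR-200b, miR-200c and miR-429 group neighbours that of miR-29.

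In the plaque, miR-31-5p led Dsp with 98 reads (61.3 expected; ratio 1.60, 1.30 to 1.95). By single name miR-205-5p was next on Dsp with 47 reads (23.1 expected, ratio 2.03, 1.49 to 2.70). Outside the 3 leading names, miR-221 and miR-222 gave 50 Dsp reads, 13.2 times the 3.78 expected (9.83 to 17.5). Dsp ranked 5 of 2264 genes by the reads of miR-221 and miR-222. Of these, 42 covered chr13:38198065-38198073, 504 bases before the span end. The centre of the miR-25, miR-32 and miR-92a stretch (17 of 28 reads) lay 26 bases away. Some other Dsp reads were crowded onto few combinations. miR-1195 gave 43 reads, of which 42 covered 1 stretch with 12 distinct combinations, and miR-1953 gave 35 reads with 10 combinations at 1 stretch. These 35 were 76.1% of all 46 miR-1953 reads in the data. Of the 56 Dsp reads in set 1 DKO, 5 were miR-1195 and 2 miR-1953, against 20 and 22 of the 135 in set 1 control. Jup was led by the miR-23 family (39 reads; 2.55 times those expected, 1.82 to 3.49) and the miR-27 family (31 reads; 1.68 times, 1.14 to 2.39). Their reads lay together inside the gene. Of the miR-23 reads 26 covered chr11:100378133-100378143, and of the miR-27 reads 21 covered chr11:100378151-100378151. These stretches had centres 13 bases apart and lay 9277 and 9295 bases before the span end. miR-31-5p had 23 Jup reads where 30.8 were expected.

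Of the plakophilins, Pkp1 is the main one of the upper epidermis. Its leading names were miR-31-5p with 44 reads (50.0 expected), miR-125b-5p with 34 (18.3 expected) and miR-27a-3p with 33 (24.1 expected). A larger ratio was that of miR-1195, with 7 reads where 2.19 were expected, a ratio of 3.20 (1.29 to 6.60). These 7 reads were 5 distinct combinations, with 1 read in set 1 DKO and 3 in set 1 control. miR-1195 is among the 9 miRNAs overrepresented in set 1 that are described below. Outside the leading names, and named after its values were seen, miR-7007-5p had 9 Pkp1 reads on 3 combinations that overlapped at chr1:135882248-135882274, of which 8 were in set 1 control. Pkp2, best known from heart and simple epithelia, had 28 reads, of which 9 were miR-3470b and 5 were miR-706, all in set 1 and on 3 and 4 distinct combinations. No miRNA gave Pkp3, a plakophilin of most epidermal layers, as many as 5 reads.

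The study removed or induced the miR-200 family, and its reads on the desmosome genes were counted first as a check of the labels. In set 1 DKO 1 of 202 desmosome reads was miR-200 (0.495%, 95% interval 0.0125 to 2.73), against 28 of 454 (6.17%, 4.14 to 8.79) in set 1 control. In set 2 DKO 2 of 915 were (0.219%, 0.0265 to 0.787), and in induced cells 215 of 1679 (12.8%, 11.2 to 14.5), against 113 of 1220 (9.26%, 7.69 to 11.03) in uninduced cells. The 3 DKO reads were all also found in another pool of their set, with the same position, strand, miRNA and 4-base barcode. Over all chimeric reads the family held 0.160% in set 1 DKO against 3.20% in set 1 control, and 0.360% in set 2 DKO and 9.04% in induced against 6.68% in uninduced cells. Scaled to the reads of the pool, miR-200 reads on desmosome genes in DKO were 0.119 times those in control in set 1 (0.00290 to 0.718) and 0.0265 times in set 2 (0.00317 to 0.0979). In induced cells they were 1.43 times those in uninduced cells (1.13 to 1.81), while reads of the other miRNAs on these genes stood at 0.991 times (0.916 to 1.07).

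Perp and Dsg3 carried most of the miR-200 reads, and with opposite seeds. On Perp miR-200 made up 1 of 26 reads in set 1 DKO against 12 of 87 (13.8%, 7.34 to 22.9) in set 1 control. It made up 0 of 180 in set 2 DKO, where 3 reads would be 1.67% and the exact interval reached 2.03%. In induced cells it was 86 of 401 (21.4%, 17.5 to 25.8), against 47 of 306 (15.4%, 11.5 to 19.9) in uninduced cells. On Dsg3 it was 0 of 22 reads in set 1 DKO against 3 of 39 in set 1 control. In set 2 DKO it was 0 of 97, where 3 reads would be 3.09% and the exact interval reached 3.73%. In induced cells it was 47 of 317 (14.8%, 11.1 to 19.2), against 29 of 206 (14.1%, 9.64 to 19.6) in uninduced cells. Induced and uninduced intervals overlapped on both genes. Over set 1 control, induced and uninduced pools, miR-200b, miR-200c and miR-429 were 93.7% (85.8 to 97.9) of the 3p miR-200 reads on Dsg3 and 10.0% (5.27 to 16.8) on Perp, beside 66.4% over all chimeric reads. On Dsc3, Dsp, Jup and Pkp1 this share was 72.7% to 77.5%, from 11 to 40 reads a gene. Dsc2 had 5 such reads, all miR-141-3p. The induced over uninduced ratio of the miR-200a and miR-141 group on Perp was 1.59 (1.03 to 2.51), beside 1.11 (1.08 to 1.14) for the group in all reads. The 2 ratios divided gave 1.44 (0.932 to 2.26).

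**Figure D4:**
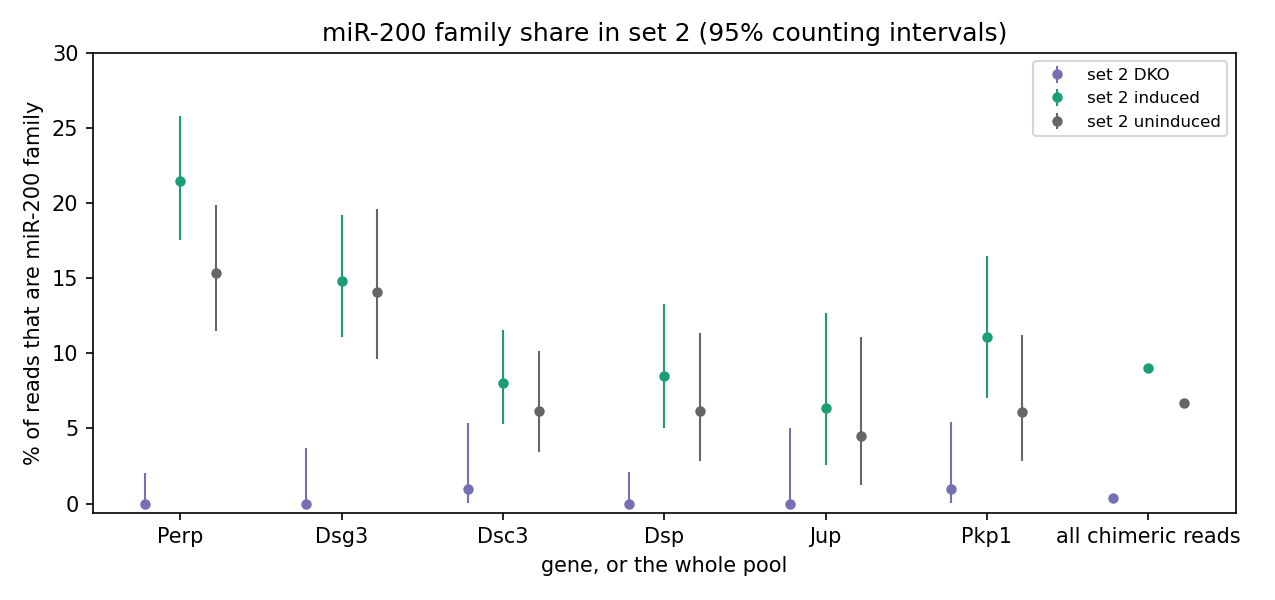
Share of reads that came from the miR-200 family (vertical axis, percent) on 6 desmosome genes and over the whole pool (horizontal axis), in the 3 pools of set 2, with exact 95% intervals. The DKO pool lies at or near 0 throughout, and Perp and Dsg3 lie above the whole pool in induced and uninduced cells.

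The comparisons of DKO with control cells asked how the desmosome genes were targeted by all miRNAs once miR-200 was gone. Ratios are shares of reads, DKO over control or induced over uninduced, for genes with at least 20 reads over both pools, and a gene is called higher or lower where the ratio is at least 1.5 or at most its inverse. In set 1 the 10 genes summed stood at 4151 RPM in DKO and 2808 in control, a ratio of 1.48 (1.25 to 1.75). Of the 7 members at the minimum 4 were higher and none lower, while over all 2219 genes 19.0% were higher and 30.7% lower. The median ratio was 1.52 over the 7 members and 0.895 over all genes. Dsc2 had 411 RPM in DKO against 148 in control (20 and 24 reads), a ratio of 2.77 (1.45 to 5.23). Dsg3 stood at 1.87 (1.06 to 3.24; 22 and 39 reads), and its interval included 1 under 3 of 5 alternatives. Pkp1 stood at 1.86 (1.18 to 2.89; 33 and 59 reads). The other called member, Dsc3, had a ratio of 1.52 whose interval included 1 (0.860 to 2.59), and it stood at 1.28 without the 9 miRNAs described next. Dsp stood at 1.38 (0.991 to 1.90), Perp at 0.993 (0.615 to 1.55) and Jup at 0.864 (0.431 to 1.61).

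Several measures of the set 1 pools moved with this result. A group of 9 miRNAs overrepresented in set 1, such as miR-709 and miR-706, held 27.7% of DKO and 37.5% of control reads, against 3.46% to 4.29% in set 2. These 9 meet a rule of a higher share in set 1 control than in uninduced cells, so the contrast between sets follows from their choice. Without these 9 miRNAs the ratio of the summed members was 1.29. The DKO pool was the shallowest, and 17.4% of its reads were also found in the control pool. All 5 keratin genes at the minimum were higher in set 1 DKO as well (median ratio 2.44), beside 19.0% of all genes. The part of these measures in the result was not tested.

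In set 2 the 10 genes stood at 4357 RPM in DKO against 3884 in uninduced cells, a ratio of 1.12 (1.03 to 1.22). Of 8 members at the minimum 2 were higher and none lower, beside 20.4% higher and 22.9% lower of 4580 genes, and the median was 1.00 over members and 1.01 over all genes. A share of 2 in 8 is near the background. Dsc2 was at 810 RPM in DKO against 207 in uninduced cells (170 and 65 reads), and 179 in induced cells, so that its DKO interval lay clear of both. Its ratio was 3.91 (2.92 to 5.29), and Dsp had 1.79 (1.43 to 2.25; 175 and 146 reads). Below 1 lay Dsc3 with 0.675 (0.529 to 0.857; 102 and 226 reads) and Dsg3 with 0.704 (0.547 to 0.901; 97 and 206 reads), both just inside the limit for a call and with intervals that excluded 1. Dsc3 passed the limit as lower with each combination counted as a single read (0.615) or without reads shared between pools (0.638). Perp stood at 0.880 (0.728 to 1.06), and Jup, Pkp1 and Dsg2 at 1.19, 1.01 and 0.997. Dsc2 was higher in DKO than in control in both sets, by 2.77 (from 20 and 24 reads) and 3.91 times. The keratin gene Krt14 was also higher in both (2.63 and 2.10). Of all genes at the minimum 19.0% were higher in set 1 and 20.4% in set 2. The share of all genes that were higher in both sets was not computed, so how unusual this recurrence is cannot be told.

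**Figure D5:**
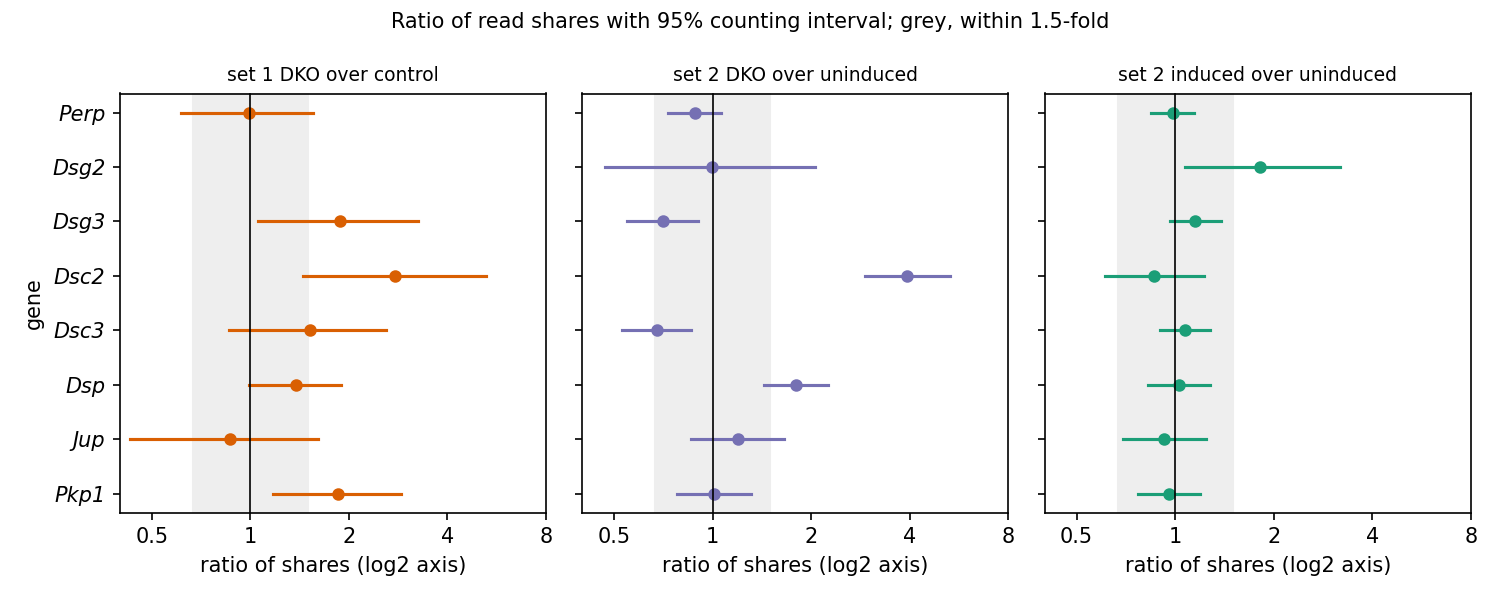
Ratio of read shares (horizontal axis, log2 scale) for each desmosome gene with at least 20 reads over the compared pools (vertical axis), with exact 95% counting intervals. Panels show set 1 DKO over control, set 2 DKO over uninduced and set 2 induced over uninduced cells, and grey marks ratios within 1.5-fold. Dsc2 lies beyond 1.5 in both DKO panels, and Dsg3 and Dsc3 lie on opposite sides of 1 in them.

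The higher Dsc2 share in set 2 DKO was made up of many miRNAs. On Dsc2 the miR-27 family had 16 reads in DKO against 2 in uninduced cells, miR-31-5p 13 against 0, miR-26 12 against 0, and miR-25 and miR-92 15 against 7. The miR-29 family, its leading one, had 19 against 25 reads, a ratio of 1.14 (0.592 to 2.15). Over all reads of the pools miR-29 was at 0.362 times uninduced in DKO, so relative to its pool it was 3.14 times as high on Dsc2 (1.63 to 5.93). On Perp, miR-29 had a ratio of 0.340 (0.101 to 0.920), close to that of the pool. The main Dsc2 site had 77 DKO and 36 uninduced reads, a ratio of 3.20 (2.13 to 4.89). The miR-27 family also had 15 against 2 reads on Dsp, a ratio of 11.2 (2.61 to 101), where the pool-wide ratio was 2.12. On Dsc3 this family had 12 against 21 (0.855, 0.383 to 1.82), and the miR-23 family 10 against 18 (0.831, 0.343 to 1.90), where the pool-wide ratio was 2.08. On Dsg3 the miR-125 family had 3 against 26 reads, a ratio of 0.173 (0.0334 to 0.563), where the pool-wide ratio was 0.569. Over the 10 genes summed this family had 25 against 79 (0.473, 0.289 to 0.750), but on Dsp 9 against 7 (1.92, 0.637 to 6.08). In set 1, miR-31-5p had 20 Dsp reads in DKO against 15 in control, a ratio of 4.43 (2.16 to 9.30), where the pool-wide ratio was 1.22. Of these 20, 13 covered chr13:38185141-38185163, where control had 1 read. The stretch with the most miR-31-5p reads on Dsp, chr13:38197602-38197602, went the other way, with 1 read in DKO against 11 in control.

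After induction the share of desmosome genes that were called was near that of all genes. Summed, they stood at 4006 RPM in induced and 3884 in uninduced cells, a ratio of 1.03 (0.957 to 1.11). Of 8 members 1 was higher and none lower, beside 11.3% higher and 8.17% lower of 5456 genes, and the median was 1.00 over members and 1.03 over all genes. The called member was Dsg2, with 51 reads (122 RPM) in induced and 21 (66.9 RPM) in uninduced cells, a ratio of 1.82 (1.08 to 3.19). Without the miR-200 family it stood at 1.61 (0.938 to 2.85). The others had ratios of 0.865 to 1.15.

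Of 10 other desmosomal and cornified junction genes, 3 reached the minimum in set 1, 4 in set 2 DKO and 5 in induced cells against their controls. Corneodesmosin (Cdsn), an adhesive protein of the cornified layer, had 13 reads in set 1 DKO and 10 in set 1 control, a ratio of 4.32 (1.75 to 11.005). In set 2 it had 24 reads in DKO against 210 in uninduced cells, a ratio of 0.171 (0.107 to 0.261). Pkp4 was higher in set 2 DKO (1.54, 1.15 to 2.07), with 0.991 in set 1, and Dsg1b was lower in induced cells (0.413, 0.210 to 0.787; 16 and 29 reads). Ppl (periplakin) kept between 1.19 and 1.42 in all 3 comparisons. Among keratins, to which desmosomes attach, 5 of 5 at the minimum were higher in set 1, where 19.0% of all genes were. In set 2 DKO 1 of 5 was higher, beside 20.4% of all genes. This was Krt14 with 2.10 (1.69 to 2.62), while Krt5, Krt17 and Krt6a stood at 1.06, 1.20 and 1.30 and Krt16 at 0.670 (0.456 to 0.969). In induced cells Krt16 was lower (0.523, 0.377 to 0.722), Krt14 stood at 0.693 (0.543 to 0.882), and none was higher. Of adherens junction genes 1 was higher and 2 lower of 9 in set 1, beside 19.0% and 30.7% of all genes. In set 2 DKO 1 was higher and 4 lower of 10, beside 20.4% and 22.9%, and in induced cells 1 was higher and none lower of 10, beside 11.3% and 8.17%. Of tight junction and polarity genes 2 were higher and none lower of 7 in set 1, beside 19.0% and 30.7% of all genes. In set 2 DKO 1 was higher and 3 lower of 9, beside 20.4% and 22.9%. In induced cells 1 was higher and none lower of 9, beside 11.3% and 8.17%. The genes whose scaled read profile over the 5 pools was most like that of the summed members, among 1175 with at least 200 reads, were Nipbl, Daam1 and Irf2. Their root mean square differences in centred log2 values were 0.03, 0.05 and 0.06.

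The labelled cell type was checked against marker genes. All 8 keratinocyte markers had reads in every pool (2035 to 4038 RPM summed). Fibroblast markers had reads for at most 1 of 6 genes, with Col1a1, Col1a2, Col3a1 and Dcn at 0 in every pool (0 to 31.8 RPM), and immune markers for at most 2 of 5 (0 to 20.6 RPM). Endothelial markers had reads for 1 to 3 of 5 (21.5 to 61.6 RPM) and melanocyte markers for 2 to 3 of 5 (89.2 to 129 RPM, with Dct and Mlana at 0).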

How the data were processed

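CLEAR-CLIP libraries of mouse keratinocytes were used as the submitters' files of chimeric reads, 1 file per group. The submitters' processing notes name the tools Novoalign, cutadapt and bedtools, without versions, and the build mm10. The deposited values are of another kind than counts, namely positions: a line gives the target position and strand of a chimeric read with its 4-base barcode and miRNA name, and no combination of all of these repeats within a file. The authors' way of collapsing copies was not given in the sources used here. Python 3.11.15, pandas 2.3.3, numpy 2.4.6, scipy 1.17.1 and matplotlib 3.10.9 were used. Reads were assigned to RefSeq spans (GRCm38.p6, the build of mm10) by their midpoint. Coordinates count from 1.

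Groups follow the sample titles. Shares have exact Clopper-Pearson intervals and ratios have conditional exact intervals at 95%. A share of 0 allows up to 3 reads. Intervals cover counting error only, since pools hold unnamed libraries and amplified copies are not fully independent. Expected reads have no error of their own, and their ratios have exact Poisson intervals. Genes of the 10 were all named, with the 3 leading miRNAs of at least 5 reads each or their families. Of the deepest sites and the sites of at least 20 combinations only some are given. Partner genes at the minimum of 20 reads are given by counts, and some by name. Besides the miR-200 family, families outside the leading miRNAs of a gene were named with their values known. The members, gene and miRNA lists and the alternatives were chosen with earlier results of these data known. Counting was tested on simulated data without amplified copies. The changed genes there had more reads and larger folds than the limits used here, so calls near those limits were not covered. Alternatives counted each combination as a single read, left out shared reads, marked read names, 9 miRNAs of set 1 (miR-1195, miR-709, miR-5099, miR-6380, miR-706, miR-7667-5p, miR-3473b, miR-3470b and miR-3470a), the miR-200 family or Perp, and changed the read minimum, fold, site depth and overlap. Seed matches, exons and UTRs were not analysed here.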

Additional observations from a re-analysis of the deposited data

Results flagged for a closer look

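Dsg3, Dsc3 and Jup had DKO ratios on opposite sides of 1 in the 2 sets, and the difference between sets was not tested. Dsg3 stood at 1.87 in set 1 and 0.704 in set 2, Dsc3 at 1.52 and 0.675, and Jup at 0.864 and 1.19. The intervals of Dsg3 excluded 1 in both sets, those of Dsc3 in set 2 only, and those of Jup in neither. In set 1 the Dsg3 interval included 1 with each combination counted as a single read (1.59, 0.866 to 2.84), without marked read names (1.82, 0.994 to 3.24) and without the 9 miRNAs (1.59, 0.885 to 2.77). The controls of the sets also differed, Cre-only cells in set 1 and uninduced inducible cells in set 2, so set and kind of control cannot be told apart.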

How the results depend on the processing

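The ratio of the summed desmosome reads kept its direction under every alternative run: 1.29 (without the 9 miRNAs) to 1.61 (without shared reads) in set 1, 1.08 to 1.20 in set 2 DKO and 1.01 to 1.05 in induced cells. The set 2 DKO interval included 1 with combinations counted singly (1.08, 0.983 to 1.18). The DKO over control ratio of the miR-200 share was 0.0803 in set 1 and 0.0236 in set 2. Without shared reads it was 0 in both, and in set 1 it was also 0 without Perp, since the only DKO read lay there. Counting sites of at least 10 combinations gave 67 in place of 30, and an overlap of at least 10 bases gave 25. Past 1.5-fold in either direction lay 49.7% of genes in set 1, 43.3% in set 2 DKO and 19.4% in induced cells. At 2-fold these were 26.2%, 20.8% and 5.10%, and at a minimum of 50 reads the share in induced cells was 9.94%. For single members, Dsc3 in set 1 fell short of the fold without the 9 miRNAs (1.28), with combinations counted singly (1.35) or without marked names (1.47), and Dsp in set 1 passed it with combinations counted singly (1.67) or without shared reads (1.51). Jup in set 1 was lower without the 9 miRNAs (0.615). Dsc3 in set 2 DKO (0.675) became a lower call with combinations counted singly (0.615) or without shared reads (0.638), so that the count of 0 lower members there depends on these choices. Dsg3 in set 1 kept its call under all 5 alternatives, at 1.59 to 2.01. The cause was not tested. No paired analysis was possible because the files carry no library names, and for the same reason no library could be left out. Restricting reads to the strand of the gene or to exons was not run, since strands were given for only 2 of the 10 genes and exons for none. Depth limits Pkp2, Pkp3 and, in set 1, Dsg2.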
